A study of Homo sapiens with 6 samples.

Results

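The phagocyte NADPH oxidase subunit genes CYBB, CYBA, NCF1, NCF4 and RAC2 and the NCF1 pseudogenes NCF1B and NCF1C were described in MOLM13 cells. They make 7 of the 56305 gene symbols counted. They were chosen by function, with their fold changes in this comparison already known and used in the choice, so their levels and fold changes are given as a description, without a test. MOLM13 is an acute myeloid leukemia line that carries an FLT3 internal tandem duplication (FLT3-ITD) and the translocation t(9;11)(p22;q23), and both groups share this genotype. Cells were cultured for 24 h with the vehicle DMSO (3 libraries, whose label also gives 1 µM) or with 1 µM ZW27941 (3 libraries). ZW27941 is a PROTAC, a molecule that brings METTL3, the catalytic subunit of the m6A RNA methyltransferase, to the ubiquitin ligase VHL for degradation.

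The phagocyte oxidase passes electrons from NADPH across a membrane to oxygen and so makes superoxide, which phagocytes use against microbes. CYBB and CYBA form the membrane-bound cytochrome, and NCF1, NCF4 and the GTPase RAC2 are among the proteins that join it from the cytosol when the cell is activated. Loss of CYBB, CYBA, NCF1 or NCF4 causes chronic granulomatous disease. NCF1 lies in a duplicated stretch of 7q11.23 between the pseudogenes NCF1B and NCF1C, which lack the GT dinucleotide at the start of the second exon that keeps NCF1 in frame.

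In GRCh38 with the GENCODE v29 annotation, the 3 loci stood on chromosome 7, NCF1B at chr7:73220624-73235945 on the plus strand, NCF1 at chr7:74773962-74789315 on the plus strand and NCF1C at chr7:75156639-75172044 on the minus strand. NCF1 is annotated as protein coding and the other two as unprocessed pseudogenes, of which NCF1B is marked as transcribed. NCF1B ended 1.54 Mb before NCF1, and NCF1C began 0.367 Mb after it. The stretch around the junction of exons 1 and 2 is shown because it holds the difference that defines the copies. Capitals mark the run of GT at the junction.
NCF1-201: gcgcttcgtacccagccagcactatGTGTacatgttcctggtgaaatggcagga
NCF1B-202: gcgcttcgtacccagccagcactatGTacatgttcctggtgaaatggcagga
NCF1C-201: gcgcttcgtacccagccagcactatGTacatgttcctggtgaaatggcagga

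In NCF1-201, the 4 capitals are the first bases of exon 2, a coding exon, at chr7:74777267-74777270. In NCF1B-202 and NCF1C-201, the 2 capitals open exon 2 at chr7:73223878-73223879 and chr7:75168709-75168710. All 3 annotated NCF1 transcripts that hold this stretch have GTGT, and the 1 NCF1C transcript has GT. Of the 3 NCF1B transcripts, 2 have GT. In the other, NCF1B-203, the GTGT spans the junction: its annotated first exon ends with the first GT and its second exon opens with the second.

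Outside this run the copies were nearly the same. NCF1-201 and NCF1C-201 were identical at 99.4% of 1394 aligned bases, with 8 substitutions, and their only 2 gap bases were those of the GT run. NCF1-201 and NCF1B-203 were identical at 99.0% of 1167 aligned bases, with 12 substitutions and 90 gap bases. Of the 1247 windows of 150 bases in NCF1-201, the length of 1 read, 681 (54.6%) occurred in no annotated transcript of either copy. At 50 bases the share was 15.5%, and at 300 bases it was 90.5%. A read from the rest of the transcript could be assigned to a wrong locus or to several loci, so the split of counts among NCF1, NCF1B and NCF1C is uncertain, and their sum is given beside it. The windows were matched exactly and only to annotated transcripts, so these shares do not show how many reads were placed correctly. How the counting treated reads that align to several loci is not given in the sources used here.

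**Figure D1:**
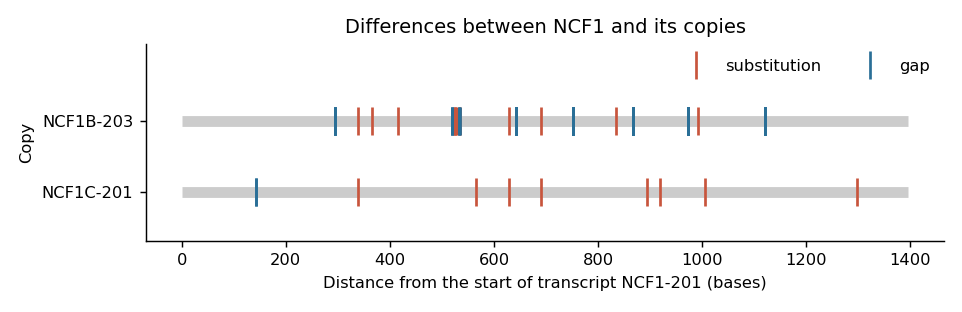
Position of each substitution (red) and gap (blue) along transcript NCF1-201, in bases from its start, for NCF1C-201 (lower bar) and NCF1B-203 (upper bar). The 8 substitutions against NCF1C-201 lie apart from each other, with long identical stretches between them.

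RNA was total RNA, and the libraries held 143454176 to 153825333 counts on genes in DMSO and 143621822 to 178744976 on ZW27941. Counts were scaled by the TMM method to a common library total (CPM), and 20399 genes passed the filter on low counts and were tested with edgeR's quasi-likelihood test. A gene past the threshold had an adjusted p under 0.05 by the Benjamini-Hochberg method. Of the genes tested, 6149 (30.1%) were past it, 3333 (16.3%) higher and 2816 (13.8%) lower on ZW27941. With upper quartile scaling the split was 2644 higher and 3643 lower. All 7 members passed the filter in both groups. Nothing in the labels says that the 3 libraries of a group came from separate cultures, so the tests measure the spread between these libraries, which may be technical. The labelled cell type was checked by its markers. Of 11 markers of a monocytic leukemia line, 10 reached a mean of 1 CPM and ANPEP did not, at 0.587 CPM in DMSO and 0.799 CPM on ZW27941. The hemoglobin genes HBB and HBA1 and the platelet genes PPBP and PF4 had no count, and the T cell markers CD3D, CD3E and CD8A summed to at most 0.444 CPM. The platelet gene ITGA2B was at 1.59 CPM in DMSO and 1.84 CPM on ZW27941, the B cell gene CD79A at 1.54 and 1.31 CPM, and COL1A1, a fibroblast gene, at 1.02 and 0.999 CPM. METTL3 itself was at 120, 122 and 122 CPM in DMSO and 119, 121 and 128 CPM on ZW27941, and since the degrader acts on the protein this transcript does not check the labels.

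Among the oxidase subunit genes, NCF1 had the largest difference between the groups: its mean level was 136 CPM in DMSO and 92.0 CPM on ZW27941, and its pseudogenes were lower by less, while CYBB, CYBA, NCF4 and RAC2 differed by at most 10.9% between the group means. In total, 5 of the 7 members were past the threshold, 4 lower and 1 higher, beside 30.1% of all genes tested (13.8% lower, 16.3% higher). The same 5 had groups that did not overlap, beside 41.6% of all genes tested (19.9% lower and 21.7% higher). Because this contrast chose the members, nothing is read from these counts. In bulk RNA, fewer cells that express a gene and less of its RNA per cell cannot be told apart.

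CYBB (chrX:37780011-37813461, plus strand) encodes the large cytochrome subunit that carries the electrons. It was at 9.25, 8.31 and 9.00 CPM in DMSO and at 10.3, 9.69 and 9.45 CPM on ZW27941. All 3 ZW27941 libraries were above the DMSO libraries, but the closest pair, 9.45 and 9.25 CPM, differed by less than the SD within either group. Its mean was 8.85 ± 0.489 CPM in DMSO and 9.82 ± 0.453 CPM on ZW27941 (SD, n = 3 each), a log2 fold change of 0.15 (standard error 0.054). CYBB was the lowest of the subunit genes in every library, with 1253 to 1862 counts.

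CYBA (chr16:88643283-88651152, minus strand) encodes the smaller cytochrome subunit, which holds CYBB in the membrane. It was at 330, 337 and 329 CPM in DMSO and at 315, 312 and 322 CPM on ZW27941. The groups did not overlap, and the difference was small: 332 ± 4.35 CPM in DMSO against 316 ± 4.82 CPM on ZW27941 (SD, n = 3 each), with a log2 fold change of -0.070 (standard error 0.024). The 2 genes of the cytochrome thus differed in opposite directions, and both calls depended on the fit: CYBA was not past the threshold when counts were scaled by library size only or when low counts were not filtered, and CYBB was not past it with upper quartile scaling. Neither gene was past it without DMSO replicate 2 (log2 fold changes of 0.11 for CYBB and -0.059 for CYBA), and the same held without DMSO replicate 3, ZW27941 replicate 1 or ZW27941 replicate 2, while without DMSO replicate 1 only the call of CYBA was lost.

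NCF1 encodes the cytosolic organizer subunit, whose phosphorylation starts assembly. It was at 131, 140 and 138 CPM in DMSO and at 89.3, 92.5 and 94.3 CPM on ZW27941. Every ZW27941 library lay well below every DMSO library, and the gap of 36.5 CPM between the nearest libraries was far wider than the spread within either group. The means were 136 ± 4.94 CPM and 92.0 ± 2.54 CPM (SD, n = 3 each), a change of -32.5%, with a log2 fold change of -0.57 (standard error 0.029).

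NCF1C was at 81.2, 85.7 and 86.4 CPM in DMSO and at 63.4, 68.1 and 65.8 CPM on ZW27941. Its groups did not overlap either, and its mean was 84.4 ± 2.84 CPM against 65.8 ± 2.36 CPM (SD, n = 3 each), a change of -22.1%, with a log2 fold change of -0.36 (standard error 0.030). NCF1B was at 59.8, 68.5 and 65.4 CPM in DMSO and at 50.3, 50.9 and 48.6 CPM on ZW27941. Its DMSO libraries spread more than its ZW27941 libraries, and they still all lay above the ZW27941 libraries. The mean was 64.5 ± 4.41 CPM against 49.9 ± 1.21 CPM (SD, n = 3 each), a change of -22.6%, with a log2 fold change of -0.37 (standard error 0.037).

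Because reads of the 3 loci can be exchanged, their counts were also summed. The sum does not restore reads that the counting may have left out because they align to several loci. The sum was 272, 295 and 290 CPM in DMSO and 203, 212 and 209 CPM on ZW27941, so the groups of the sum did not overlap. Its mean was 285 ± 11.98 CPM in DMSO and 208 ± 4.33 CPM on ZW27941 (SD, n = 3 each), a change of -27.2%, with a log2 fold change of -0.46 (standard error 0.029). Of the family's difference, NCF1 accounted for 44.3 CPM (57.1%), NCF1C for 18.7 CPM (24.1%) and NCF1B for 14.6 CPM (18.8%).

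**Figure D2:**
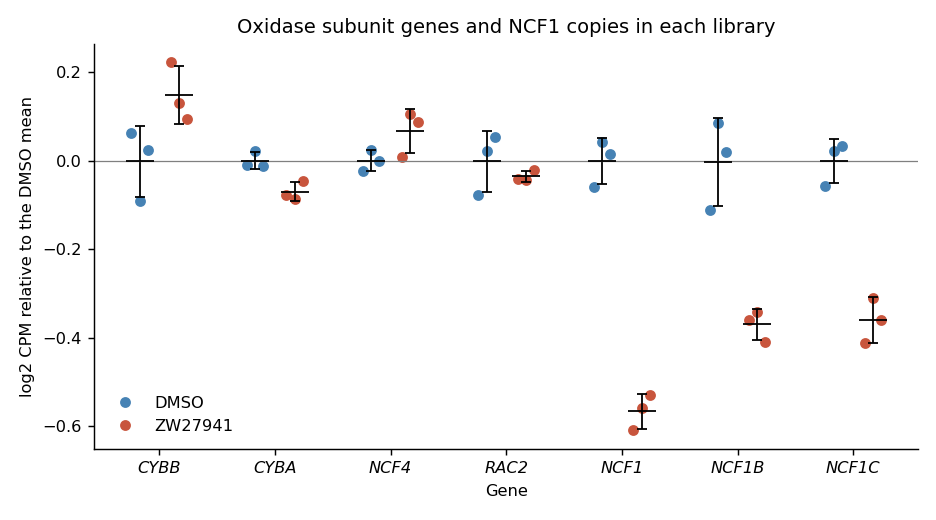
Each point is 1 library, drawn as log2 CPM relative to the mean of the DMSO libraries for that gene, with the mean (long dash) and SD of each group (blue, DMSO; red, ZW27941; n = 3 each). NCF1, NCF1B and NCF1C lie below 0 in all 3 ZW27941 libraries by 0.30 or more, and CYBB, CYBA, NCF4 and RAC2 lie within about 0.2 of it.

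The make-up of the family also differed between the groups. NCF1 took 48.1%, 47.7% and 47.6% of the family's counts in DMSO and 44.0%, 43.7% and 45.2% on ZW27941. In the first DMSO library, for example, this was 18747 of 38946 counts, with an exact 95% binomial interval of 47.6% to 48.6%, which covers counting error only. The mean share was 47.8% ± 0.308 in DMSO and 44.3% ± 0.791 on ZW27941 (SD, n = 3 each), a difference of -3.48 percentage points. The share of NCF1C was 2.04 points higher and that of NCF1B 1.44 points higher. The ratio of NCF1 to NCF1C was 1.61, 1.64 and 1.59 in DMSO and 1.41, 1.36 and 1.43 on ZW27941, again without overlap. The ratio of NCF1C to NCF1B did overlap, with a mean of 1.31 ± 0.0535 in DMSO and 1.32 ± 0.0498 on ZW27941 (SD, n = 3 each). The proportion of the 2 pseudogenes to each other thus differed by less than its spread, while NCF1 was lower against both.

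Reads aligned to several places made up 3.75% to 4.07% of all reads tallied in DMSO, and 3.63% to 5.25% on ZW27941, with the highest share in replicate 3. ZW27941 replicate 3 also had the highest NCF1 share of its group, 45.2%. Without it the difference in share was -3.93 points, against -3.48 with all libraries, and the log2 fold change of the sum stayed between -0.49 and -0.43 whichever library was left out. The part of these reads in the difference between NCF1 and its copies, and in the sum, was not tested.

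**Figure D3:**
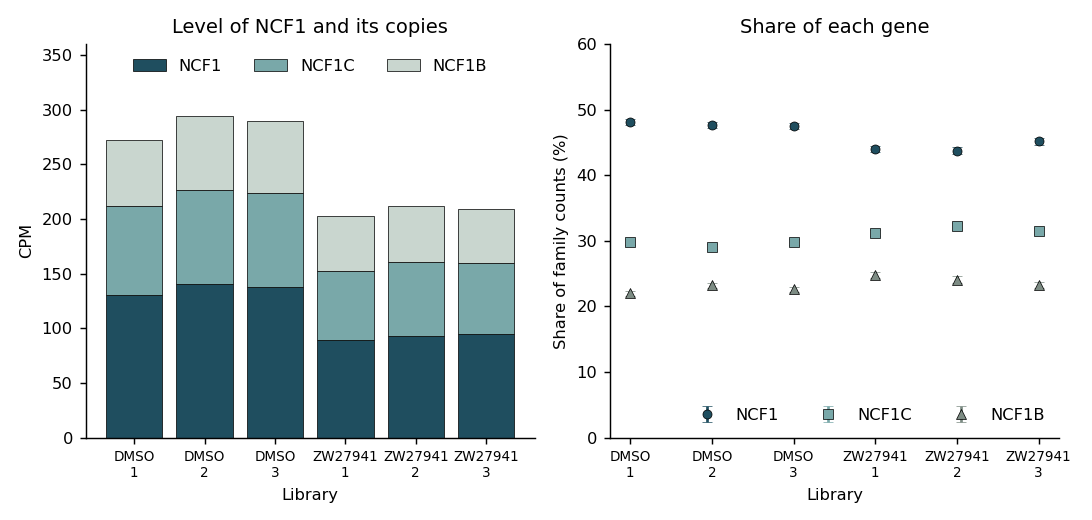
Left, CPM of NCF1 (dark), NCF1C (middle) and NCF1B (light) stacked in each library. Right, the share of the family's counts (%) that each gene took in each library, with exact 95% binomial intervals that are about as small as the symbols. The stacks are 272 to 295 CPM in DMSO and 203 to 212 CPM on ZW27941, and the NCF1 share is 47.6% to 48.1% against 43.7% to 45.2%.

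NCF4 (chr22:36860988-36878015, plus strand) encodes the subunit that binds phosphoinositides on the phagosome. It was at 45.6, 47.2 and 46.4 CPM in DMSO and at 46.7, 49.9 and 49.3 CPM on ZW27941, and the groups overlapped. The log2 fold change of 0.067 (standard error 0.030) was not past the threshold, and it passed it when ZW27941 replicate 1 was left out (0.095). The antisense gene NCF4-AS1 overlaps 27 bases (1.53%) of its exons, and the strand setting of the counting is not given in the sources used here. RAC2 (chr22:37225261-37244448, minus strand), the GTPase that switches the assembled complex on, was at 426, 456 and 467 CPM in DMSO and at 437, 436 and 443 CPM on ZW27941. The ZW27941 libraries all fell within the range of the DMSO libraries, and the log2 fold change was -0.035 (standard error 0.029).

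For levels between genes, CPM were divided by the length of each gene's merged exons. In DMSO, RAC2 was highest at 178 ± 8.43 CPM per kb, followed by CYBA at 98.9 ± 1.30, NCF1C at 59.2 ± 1.99, NCF1 at 39.4 ± 1.43, NCF1B at 33.9 ± 2.32, NCF4 at 26.4 ± 0.429 and CYBB at 2.00 ± 0.111 CPM per kb (SD, n = 3 each). No 2 neighbours in this order had overlapping ranges. The place of the NCF1 loci among themselves rests on the annotation, since the merged exons span 3.46 kb for NCF1, 1.90 kb for NCF1B and 1.43 kb for NCF1C. The 2 genes of the cytochrome were therefore far apart in RNA level, with CYBB lowest of the 7.

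The place of the NCF1 loci among abundant genes was also read. Of 3975 tested genes with a mean CPM at least that of NCF1B, 1 had a lower log2 fold change than NCF1, 7 one lower than NCF1B and 8 one lower than NCF1C. Over all 20399 genes tested, which include many of low level, the same counts were 850, 1670 and 1730. These ranks use the fold change that chose the members and are a description. The gene below NCF1 was NEAT1, a nuclear long noncoding RNA named here after its value was seen, with a log2 fold change of -0.60.

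Among 13451 other tested genes with a mean of at least 1 CPM, the 5 whose pattern was nearest to that of NCF1 over the 6 libraries were ADM2, DUSP5P1, ANKRD18DP, SGK1 and MIR600HG. Likeness was the Euclidean distance between log2 CPM profiles centred on their means, and it ran from 0.103 for ADM2 to 0.145 for MIR600HG. SGK1, a serum- and glucocorticoid-induced kinase, was at 16.4, 15.8 and 16.9 CPM in DMSO and at 10.9, 11.3 and 10.7 CPM on ZW27941. ADM2, a secreted peptide of the adrenomedullin family, was at 6.88, 7.76 and 7.12 CPM in DMSO and at 4.63, 5.15 and 5.07 CPM on ZW27941. NCF1C and NCF1B ranked 76 and 90 in the same order, at distances of 0.260 and 0.269.

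Promoter sequence was available from RefSeq (GRCh38.p14) for CYBB, CYBA and NCF1, covering 250 bases before to 50 after the start site. SPI1 (PU.1), the myeloid ETS factor, is known to drive the genes of the oxidase, so each was searched on both strands for GAGGAA, the core of its motif. NCF1 and CYBB each held it once, both on the minus strand, 45 and 48 bases before the RefSeq start. The GENCODE models of both genes begin further upstream, so the motifs lie inside those models. CYBA did not hold these letters in this window. Of 35116 promoters of this length, 27.9% held it, so a match alone says little. The matches are shown with 12 bases on each side and the motif in capitals as read on the plus strand, from chr7:74773954-74773983 for NCF1 and chrX:37779999-37780028 for CYBB.
NCF1: gacaaaagcgacTTCCTCtttccagtgcat
CYBB: tgctgttttcatTTCCTCattggaagaaga

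The 30 bases of NCF1 were also found unchanged in transcript NCF1C-201, whose annotated start lies further upstream. SPI1 itself was at 170, 173 and 172 CPM in DMSO and at 186, 182 and 188 CPM on ZW27941, without overlap, and rose with a log2 fold change of 0.11 (standard error 0.024, edgeR's adjusted p = 0.0014). Of the genes that held the motif, CYBB was higher (0.15) and NCF1 lower (-0.57) in the same libraries. The part of SPI1 in these values was not tested.

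METTL3 methylates adenosines mostly in a consensus of which GGACT is the commonest form in DNA letters. On the sense strand, the longest protein-coding transcript (for the pseudogenes, the longest transcript) held GGACT 3 times for CYBB, 2 times each for NCF4 and RAC2, once for NCF1B, and not at all for CYBA, NCF1 and NCF1C. Of 19669 protein-coding genes, 88.8% held it at least once in that transcript, with a median of 0.927 per kb. That share covers transcripts of all lengths, and those of CYBA, NCF1 and NCF1C have 1415, 1396 and 1427 bases. Other forms of the consensus were not counted. These are counts of letters and not measured m6A.

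Of 39 genes for the assembly and activation of the oxidase, 11 (28.2%) were higher and 7 (17.9%) lower on ZW27941, beside 16.3% and 13.8% of all genes tested. The median log2 fold change was 0.020, against -0.0019 over all genes tested. The calcium-binding proteins S100A8 and S100A9, which carry arachidonic acid to the complex, rose with the lowest p: S100A8 went from 71.6 ± 4.16 to 109 ± 4.74 CPM and S100A9 from 87.1 ± 2.70 to 120 ± 6.25 CPM (SD, n = 3 each), log2 fold changes of 0.61 and 0.46. ARHGDIA, which holds Rac and related GTPases in the cytosol, rose by 0.19 on the log2 scale. CORO1A (-0.17), which binds actin and NCF4, MSN (-0.14), which links membrane and actin, and PREX1 (-0.11), an exchange factor for Rac, were lower. Other named members of the machinery were not past the threshold. The log2 fold change was 0.031 for C17orf62 (CYBC1), which stabilizes the cytochrome, -0.045 for the exchange factor VAV1, -0.023 for the exchange factor DOCK2, 0.051 for the kinase PRKCD and 0.051 for the proton channel HVCN1. VAV1 was lower, and PRKCD and HVCN1 higher, in all 3 ZW27941 libraries than in all DMSO libraries. VAV1 passed the threshold with upper quartile scaling (-0.068).

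Of 13 genes for related oxidases and related subunits, 5 passed the filter. Of these, 1 (20%), NOXA1, was past the threshold and lower and 0 were higher, beside 13.8% and 16.3% of all genes tested. NOXA1, an activator subunit of nonphagocytic oxidases, went from 4.70 ± 0.410 to 3.58 ± 0.299 CPM (SD, n = 3 each), a log2 fold change of -0.39 (standard error 0.080). The count of higher genes was 0 by edgeR, 0 at an unadjusted p under 0.05, and 0 by DESeq2 and limma-voom. With only 5 genes tested, nothing is read from this count. The paralogs of RAC2 were not past the threshold, RAC1 with a log2 fold change of -0.063 (standard error 0.024, edgeR's adjusted p = 0.0534) and RAC3 with 0.020. RAC1 was close to the threshold and passed it in 6 of 14 other fits, at -0.067 with RLE size factors, -0.087 with upper quartile scaling, -0.065 with at least 10 counts in every library, -0.067 by DESeq2, -0.063 by limma-voom and -0.072 without ZW27941 replicate 3. Those of NCF1 that scaffold the related oxidases, SH3PXD2A and SH3PXD2B, had values of -0.0030 and -0.12, neither past it. RAC1 was at 150 ± 1.92 CPM in DMSO and 144 ± 2.20 CPM on ZW27941 (SD, n = 3 each).

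**Figure D4:**
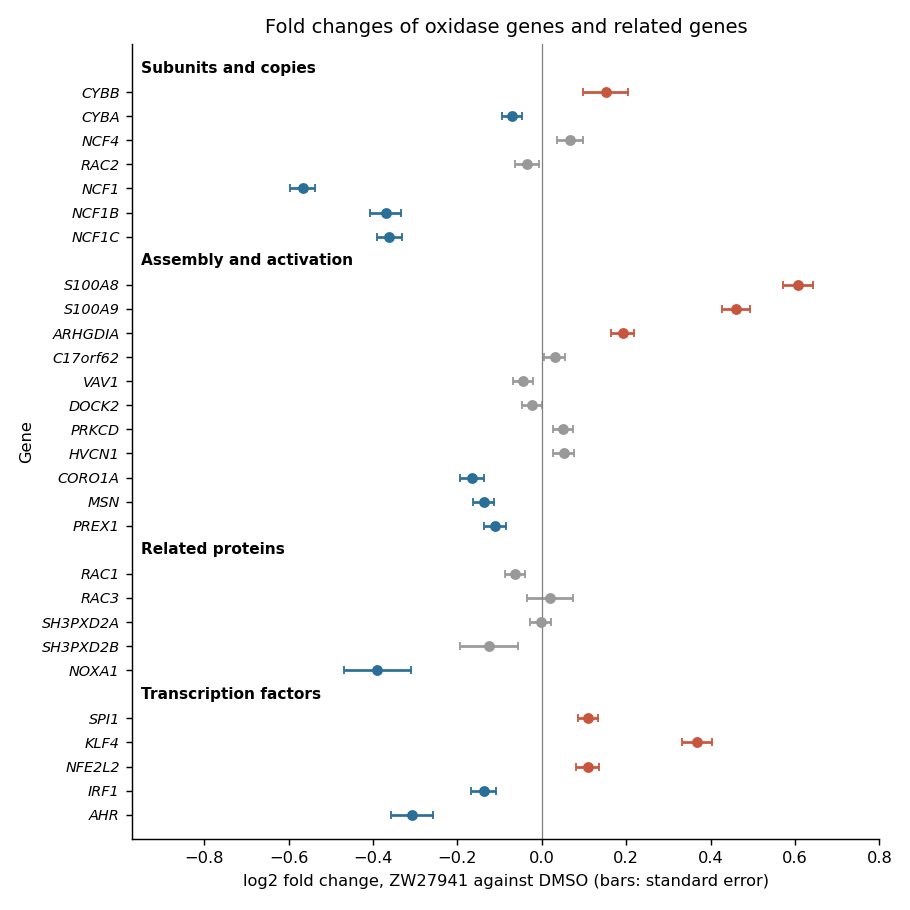
Log2 fold change of ZW27941 against DMSO with its standard error for the subunit genes and NCF1 copies, named genes of assembly and activation, related proteins and transcription factors (red, past the threshold and higher; blue, past it and lower; grey, not past it). NCF1 has the lowest value drawn, -0.57, and S100A8 the highest, 0.61.

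Of 34 transcription factors known to act on oxidase genes or on myeloid genes, 7 (20.6%) were higher and 5 (14.7%) lower, beside 16.3% and 13.8% of all genes tested, with a median log2 fold change of 0.035. KLF4, a driver of monocyte differentiation, rose from 19.8 ± 0.638 to 25.6 ± 0.971 CPM (SD, n = 3 each), a log2 fold change of 0.37. SPI1 (0.11) and NFE2L2 (0.11), which drives antioxidant genes, also rose. AHR, the aryl hydrocarbon receptor, fell from 9.88 ± 0.222 to 7.98 ± 0.197 CPM (SD, n = 3 each), a log2 fold change of -0.31. IRF1 (-0.14), a factor of the interferon response, fell too.

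Of 37 receptors and signalling genes that trigger the oxidase, 12 (32.4%) were higher and 8 (21.6%) lower, beside 16.3% and 13.8% of all genes tested, with a median log2 fold change of 0.015 and a range of -0.86 to 1.11. Both ends of that range were genes with at most 36 counts in any library. The kinase SYK rose from 150 ± 1.31 to 174 ± 2.35 CPM (SD, n = 3 each), a log2 fold change of 0.21. The interferon gamma receptor chains differed in direction: IFNGR1 rose (0.24) and IFNGR2 fell (-0.13). TREM1, an activating receptor of low level here, rose from 2.28 ± 0.249 to 3.68 ± 0.241 CPM (SD, n = 3 each), a log2 fold change of 0.69. The tumor necrosis factor receptor TNFRSF1B (-0.15) and the adaptor LAT2 (-0.10), which also lies in 7q11.23, fell.

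Of 27 genes that remove superoxide and peroxide or use them, 25 were tested, of which 4 (16%) were higher and 10 (40.0%) lower, beside 16.3% and 13.8% of all genes tested, with a median log2 fold change of -0.082. SOD2, the mitochondrial superoxide dismutase, fell from 160 ± 3.02 to 134 ± 0.196 CPM (SD, n = 3 each), a log2 fold change of -0.25. PRDX5 (-0.19), a peroxidase, and TXN (-0.14), the thioredoxin that reduces such peroxidases, fell as well. NQO1 (0.28), a quinone reductase, TXNRD1 (0.093), thioredoxin reductase, and MPO (0.093), which makes hypochlorous acid from the oxidase's product, rose. The call of MPO was lost without DMSO replicate 3 (0.078) and with upper quartile scaling (0.070).

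Of 37 other genes listed for the 7q11.23 stretch around NCF1, 30 were tested, and 6 were higher and 3 lower, beside 16.3% and 13.8% of all genes tested, with a median log2 fold change of 0.022 and a range of -0.38 to 0.30. Both ends of that range were genes with at most 75 counts in any library, neither past the threshold. BAZ1B (0.17), GTF2IRD2B (0.20) and HIP1 (0.11) rose, and EIF4H (-0.14), LAT2 (-0.10) and PMS2P3 (-0.12, edgeR's adjusted p = 0.0497) fell. Genes that, like NCF1, have named copies in the duplicated blocks were counted on their own, since their reads are also shared among copies. Of 19 such genes, 3 were higher (GTF2I, 0.12, GTF2IP4, 0.11, and GTF2IRD2B), 1 was lower (PMS2P3) and 15 were not past the threshold, namely GTF2IP1, GTF2IRD2, GTF2IRD2P1, STAG3L1, STAG3L2, STAG3L3, NSUN5, NSUN5P1, NSUN5P2, TRIM73, TRIM74, POM121, POM121C, PMS2P5 and GATSL2. The log2 fold changes of the 19 ran from -0.38 to 0.20, with a median of 0.018. The lowest was that of GATSL2, a gene of 0.412 CPM in DMSO and 0.318 CPM on ZW27941, whose groups overlapped (standard error 0.21), and it lay below the values of NCF1B and NCF1C. Some of these calls depended on single libraries or on the fit: PMS2P3 was lost without ZW27941 replicate 2 (-0.086) or any 1 DMSO library, and GTF2IP4 without either of DMSO replicates 1 and 3 or ZW27941 replicates 2 and 3 (0.086 without the last). PMS2P3 was also lost with library size only (-0.110), without a filter (-0.115) and by limma-voom (-0.118), and GTF2IP4 with upper quartile scaling (0.083). STAG3L1 (-0.18) and STAG3L3 (0.15) were gained without DMSO replicate 3 and NSUN5 (-0.090) without ZW27941 replicate 3. STAG3L1 (-0.14) and NSUN5 (-0.093) were also gained with upper quartile scaling, and STAG3L3 (0.095) without a filter.

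Of 29 genes of myeloid maturation, 26 were tested, of which 20 (76.9%) were higher and 1 (3.8%) lower on ZW27941, beside 16.3% and 13.8% of all genes tested, with a median log2 fold change of 0.29. The list had been read in earlier results of these libraries, so its direction is not independent evidence. S100A8 had the lowest p in it, RNASE2, a granule ribonuclease, rose from 255 ± 7.31 to 348 ± 8.43 CPM, and CSF1R, the receptor of macrophage colony-stimulating factor, rose from 48.2 ± 0.516 to 63.8 ± 1.30 CPM (SD, n = 3 each), log2 fold changes of 0.45 and 0.40. The 1 gene that fell was CD14, the coreceptor for lipopolysaccharide, from 1.54 ± 0.174 to 1.17 ± 0.109 CPM (SD, n = 3 each), and this call was lost without DMSO replicate 1 (-0.30) or ZW27941 replicate 1 (-0.32). Expression of the oxidase is itself a feature of myeloid maturation, and beside this list the log2 fold changes of CYBB, NCF4, RAC2 and CYBA ran from -0.070 to 0.15, and that of NCF1 was -0.57. The summed level of the 11 monocytic leukemia markers was 2590 to 2652 CPM in DMSO and 2861 to 2929 CPM on ZW27941. LYZ had the largest difference in it, with means of 963 CPM in DMSO and 1159 CPM on ZW27941. The means of FLT3 (563 and 555 CPM), HOXA9 (50.6 and 48.5 CPM) and MEIS1 (46.6 and 45.9 CPM) were lower on ZW27941. Those of the other markers were higher, so the sum does not show the set rising together. The part of a shift in maturation in the values of the oxidase genes was not tested.

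**Figure D5:**
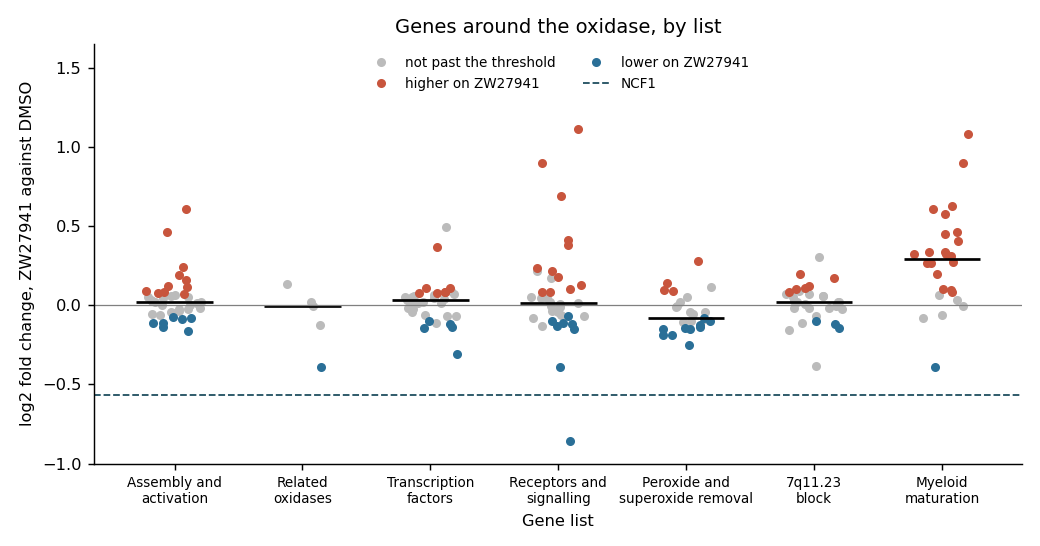
Log2 fold change of each tested gene in the 7 lists (red, past the threshold and higher; blue, past it and lower; grey, not past it), with the median of each list as a black bar and NCF1 at -0.57 as the dashed line. The median is 0.29 for myeloid maturation and lies between -0.082 and 0.035 for the other lists.

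Over all 7 lists together, 207 genes were listed, 206 were in the count tables and 187 were tested, of which 55 (29.4%) were higher and 33 (17.6%) lower on ZW27941, beside 16.3% and 13.8% of all genes tested. With upper quartile scaling the same count was 39 higher and 47 lower. The pooled count includes the myeloid maturation list, in which 20 of 26 tested genes were higher and 1 was lower. That list had been read in earlier results of these libraries, so the pooled shares are not independent evidence.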

How the data were processed

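Per library, the authors deposited 1 table of raw, unnormalized counts for each gene symbol. The submitters' processing notes name HISAT2, SAMtools 1.19.2, HTSeq 2.0.3 and the build hg38. The annotation and strand setting are not given in the sources used here. The 5 tallies of unassigned reads (37.4% to 39.8% of reads) were left out. Groups came from the labels.

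The analysis used edgeR 4.0.16 under R 4.3.3 (TMM, filterByExpr, quasi-likelihood test, Benjamini-Hochberg adjustment over 20399 genes, threshold 0.05). The standard error was the log2 fold change over the root of the F statistic. DESeq2 1.42.0, limma 3.58.1 (voom), other scalings, filters and thresholds, and each library left out were alternatives. Positions, exon lengths and transcripts came from GENCODE v29, aligned with Biopython 1.88, and promoters from RefSeq, in which 3 of the members were matched. In simulated counts for this comparison over 20096 genes, 200 genes were changed, by 0.5 or 1 on the log2 scale in either direction. Among those with at least 100 counts, 34 of 34 were recovered at -1 and 33 of 38 at -0.5. At 0.5 it was 29 of 33, and at 1 it was 37 of 37. At any count, 148 of the 200 were recovered, with 5 false calls. Smaller changes, and a share of changed genes as large as the 30.1% past the threshold here, were not simulated.

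The members and lists were chosen with earlier results of these data known. Genes were named by rule: the members, in each of 7 lists the 3 with the lowest p in each direction past the threshold, paralogs with a mean of at least 1 CPM, SPI1, C17orf62, VAV1, DOCK2, PRKCD and HVCN1, 7q11.23 genes with named copies, the 5 genes nearest to NCF1, and markers of the line. METTL3, the target of the degrader, and NEAT1 were named outside this rule. Some genes that the rule would name are not reported here.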

Additional observations from a re-analysis of the deposited data

How the results depend on the processing

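NCF1, NCF1B and NCF1C were past the threshold in all 14 other fits, with log2 fold changes of -0.59 to -0.54, -0.42 to -0.33 and -0.39 to -0.34. These fits reuse the comparison that chose the members, so the members' calls in them are a description and not independent evidence. The family sum ran from -0.49 to -0.43, and the difference in the NCF1 share from -3.93 to -3.07 points, the latter against NCF1B only. The number of members past the threshold was 3 to 5 with 1 library left out. It was 3 (the NCF1 loci) without DMSO replicate 2, DMSO replicate 3 or ZW27941 replicate 2. Without DMSO replicate 1 CYBA was lost, and without ZW27941 replicate 1 CYBB and CYBA were lost and NCF4 was gained. It was 3 with NCF1 and its copies summed as 1 member (1 higher, 2 lower), and 3 at an adjusted p under 0.01. At that threshold 58 of the other oxidase and related genes were past it, against 88. The share of all genes tested at an adjusted p under 0.01 is not given here, so nothing is read from the counts at that threshold. Over all genes, 4836 to 6287 were past the threshold.

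The replicate numbers did not pair the libraries: the correlation of same-numbered libraries' deviations was -0.025, -0.0018 and 0.086, and not every library correlated best with its own number. With the replicate number as a block, 6010 genes were past the threshold, and the same 5 members.

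Of 59 named genes that are no members, the 34 past the threshold kept their direction in every alternative, and 30 of them stayed past it throughout. The others (MPO, CD14, GTF2IP4 and PMS2P3) were lost in some. Of those not past it, RAC1, VAV1, STAG3L1, STAG3L3 and NSUN5 passed it in some, and 11 changed sign. With upper quartile scaling the log2 fold change was -0.0039 for RAC3, -0.010 for METTL3, -0.0055 for GTF2IRD2, -0.015 for STAG3L2 and -0.0014 for NSUN5P1. With library size only it was 0.0072 for SH3PXD2A and 0.0028 for POM121. Without a filter it was 0.0025 for SH3PXD2A. For GTF2IRD2P1 it was 6.13e-04 with limma-voom and 0.0083 with the replicate block. With 1 library left out it ran from -0.0096 to 0.049 for RAC3, -0.013 to 0.0087 for SH3PXD2A, -0.023 to 0.035 for METTL3, -0.017 to 0.066 for GTF2IRD2, -0.22 to 0.12 for GTF2IRD2P1, -0.024 to 0.057 for STAG3L2, -0.036 to 0.072 for NSUN5P1, -0.0038 to 0.095 for NSUN5P2, -0.023 to 0.14 for TRIM73, -0.012 to 0.10 for TRIM74 and -0.025 to 0.0042 for POM121. The causes were not tested. Counts limit CYBB most, at 1253 to 1862 a library, and the annotation limits the split among the NCF1 loci.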
